A study of Homo sapiens with 10 samples.

Results

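The genes described here are 29 genes of cholesterol metabolism out of 20263 genes in the deposited expression table: 18 enzymes of sterol synthesis, 5 genes of the SREBP control circuit, and 6 genes that move, export or esterify sterol or control its uptake. They were taken by name, with Ensembl identifiers matched to gene symbols, and all 29 were found. PANC-1, an established human pancreatic cancer cell line, was treated with 20 µM of the plant alkaloid lycorine (LY, 5 libraries, LY-1 to LY-5) or with DMSO as vehicle (5 libraries) for 24 h, and mRNA was sequenced. All cells came from this 1 line, with no genetic change named in the labels, and the labels do not say whether the 5 samples of a group were separate cultures, so the p-values below measure only the spread between these samples. The control libraries are headed NC-1 to NC-5 in the table and were taken as the DMSO group, the only other group in the labels, without matching each to a single sample; the design text counts 4 in each group although 5 are listed. Levels are in TPM, a gene's length-corrected share of all transcripts in its library, scaled to the same fixed total in each, so the read depth behind a value is unknown. In bulk RNA a lower level can come from fewer cells of a kind or from less RNA per cell, and these cannot be told apart.

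Cells build cholesterol from acetyl-CoA. The mevalonate steps make isoprenoid units, the squalene steps join them and close the ring, and the late steps trim lanosterol to cholesterol. The pathway is controlled by sterol level: SCAP carries the SREBP transcription factors, made from SREBF1 and SREBF2, from the endoplasmic reticulum to the Golgi, where they are cut and released to the nucleus, while the INSIG proteins hold SCAP back when sterol is plentiful. Surplus sterol activates the LXR receptors, which raise the exporters ABCA1 and ABCG1, or is stored as ester by SOAT1.

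Promoter sequences from RefSeq (GRCh38.p14, 250 bases before to 50 after the RefSeq gene start) were found for 25 of the 29 members, and 4 are printed, each 5′ to 3′ on the strand of its gene. The RefSeq start can differ from that of the GENCODE gene coordinates given below. The windows of EBP and CYP51A1 lie inside those coordinates. That of IDI1 (chr10:1056655-1056954, minus strand) lies wholly upstream of its gene coordinates (chr10:1039152-1049170). SREBF2 is shown because it alone among these 25 holds the letters TCACNCCAC, 1 form of the core of a sterol regulatory element, which the SREBP factors bind. Other forms were not searched for, so the other promoters may hold them. The other 3 are shown because their genes moved in opposite directions after LY. In SREBF2 (chr22:41832855-41833154, plus strand) capitals mark that core, which starts 133 bases before the gene start. In EBP (chrX:48521558-48521857, plus strand) and HSD17B7 (chr1:162790452-162790751, plus strand), both lower after LY, capitals mark the CCAAT box, here as its reverse complement. CYP51A1 (chr7:92134428-92134727, minus strand), higher after LY, holds no CCAAT box in this window and has no capitals. These promoters do not stand for all members that moved. INSIG1 (lower) and SOAT1 (higher) hold 1 CCAAT box each, and INSIG2 (lower) and IDI1 (higher) hold 0. In these windows the box was thus both present and absent in either direction.
SREBF2: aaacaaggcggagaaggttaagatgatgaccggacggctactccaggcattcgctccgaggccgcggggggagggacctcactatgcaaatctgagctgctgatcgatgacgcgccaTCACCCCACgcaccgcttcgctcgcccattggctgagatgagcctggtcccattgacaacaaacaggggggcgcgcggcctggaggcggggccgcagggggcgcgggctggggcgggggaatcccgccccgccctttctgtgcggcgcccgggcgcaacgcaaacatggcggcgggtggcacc
EBP: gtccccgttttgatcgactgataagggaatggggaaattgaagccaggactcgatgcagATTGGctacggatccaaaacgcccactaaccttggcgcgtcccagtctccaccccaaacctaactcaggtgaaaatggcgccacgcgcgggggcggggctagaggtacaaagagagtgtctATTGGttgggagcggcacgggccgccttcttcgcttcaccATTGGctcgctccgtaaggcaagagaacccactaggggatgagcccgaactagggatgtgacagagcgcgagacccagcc
HSD17B7: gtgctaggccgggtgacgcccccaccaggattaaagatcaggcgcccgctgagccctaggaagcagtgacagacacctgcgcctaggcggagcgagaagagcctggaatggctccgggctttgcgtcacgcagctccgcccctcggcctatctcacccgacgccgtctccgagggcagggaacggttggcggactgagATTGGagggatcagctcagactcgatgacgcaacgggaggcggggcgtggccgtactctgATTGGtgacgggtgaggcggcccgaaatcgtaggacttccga
CYP51A1: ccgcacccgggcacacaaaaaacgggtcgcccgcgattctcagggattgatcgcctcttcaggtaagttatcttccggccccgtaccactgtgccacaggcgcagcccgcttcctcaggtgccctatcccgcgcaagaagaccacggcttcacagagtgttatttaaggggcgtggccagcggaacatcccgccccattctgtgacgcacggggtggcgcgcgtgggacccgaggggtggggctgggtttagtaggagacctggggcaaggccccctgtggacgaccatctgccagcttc

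The letters TCACNCCAC, searched on both strands, were present in 1 of 25 member promoters (4%) and in 1.15% of all 27305 promoters in the reference table. CCAAT stood in 18 of 25 (72%) against 35.7% of all promoters and 36.9% of the 9442 promoters of tested genes, and the GC box GGGCGG in 23 of 25 (92%) against 44.6% and 72.3%. None of these 3 motifs contains another. A match is a description of these letters, and no match says only that they are not in this window.

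One control library stood apart and bears on every comparison below. NC-2 drew 37.5% of its TPM from 13 mitochondrially encoded genes, against 12.2% to 14.1% in the other 4 controls and 6.43% to 14.9% in the LY libraries. Since TPM is a share of a fixed total, every other gene of NC-2 is scaled down: NC-2 was the lowest control in 23 of 27 tested members, at a median of 64.2% of the mean of the other controls (range 30.5% to 117%). With the mitochondrial genes removed and the rest rescaled, NC-2 was the lowest control in 14 of 27, at a median of 89.0% (range 42.3% to 162%). Single members of NC-2 thus still lay far from the other controls. Results are therefore given for the 10 libraries as deposited and, where the call or its size changes, without NC-2 and with the mitochondrial genes removed. Keratins KRT8 and KRT18 were abundant in every library (means of 1344 and 1010.0 TPM in LY and 1419 and 714 TPM in DMSO), while KRT7 and CDH1 stayed below 1 TPM on average, so 4 of 6 epithelial and duct markers reached 1 TPM; KRT19 was at 21.0 TPM in LY and 148 TPM in DMSO. The acinar genes PRSS1, CPA1 and CELA3A, the endocrine genes INS, GCG and SST, and CD3E and PECAM1 were at 0 in all libraries.

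**Figure D1:**
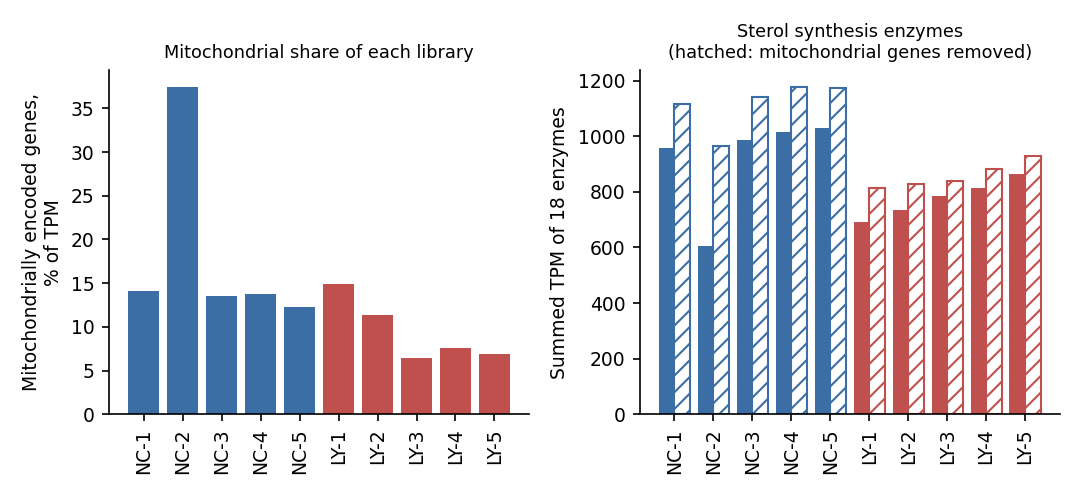
Left, share of TPM from mitochondrially encoded genes (vertical axis, percent) in each of the 10 libraries (DMSO blue, LY red); NC-2 stands at 37.5% and the other controls at 12.2% to 14.1%. Right, summed TPM of the 18 synthesis enzymes as deposited (filled bars) and with mitochondrial genes removed (hatched bars); NC-2 is the lowest control in both.

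Of the 29 members, 27 passed the filter on low values (TPM of at least 1 in at least 5 libraries) and were tested with limma among 11663 genes, on log2(TPM + 1), where a fold change understates the change of low genes. At a Benjamini-Hochberg adjusted p below 0.05, 3 members rose after LY (11.1%, against 39.8% of all tested genes called higher) and 6 fell (22.2%, against 24.9% called lower), while 18 passed neither way. The risers were CYP51A1, IDI1 and SOAT1, and the fallers ACAT2, EBP, HSD17B7, INSIG1, INSIG2 and ABCG1, the last of which passed the filter only through the controls. Without NC-2 the same 3 rose (39.5% of all genes called higher) and 18 fell (66.7%, against 31% of all genes called lower): the 6 named above and 12 others. With mitochondrial genes removed from all 10 libraries, 3 rose (33.2% of all genes) and 19 fell (70.4%, against 32.7% of all genes), of which 17 also fell without NC-2. The share that fell as deposited was thus near the background, and the share in the other scalings was above it, with no test of that difference. The 6 fallers and 3 risers passed in the same direction in each of the scalings tried (as deposited, median-ratio, quantile, upper-quartile, mitochondrial genes removed) and without NC-2.

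The median log2 fold change over the 27 tested members was -0.26 as deposited, where the median of all tested genes was 0.17, and 21 of 27 values were negative. Without NC-2 these medians were -0.35 and 0.10, and with mitochondrial genes removed -0.39 and 0.03. In TPM as deposited, all 5 LY libraries lay above all 5 controls for 3 members (32.7% of all tested genes did so) and below them for 3 members, ACAT2, EBP and ABCG1 (16.7% of all tested genes). The count of members below the controls was 12 without NC-2 and 8 with mitochondrial genes removed. The share of all tested genes was not counted in these settings, and leaving out a control makes separation easier for every gene. These counts therefore have no background to be read against. The same 3 were the members that fell at least 2-fold (9.76% of all tested genes), and 0 members rose at least 2-fold, against 12.4% of all tested genes.

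**Figure D2:**
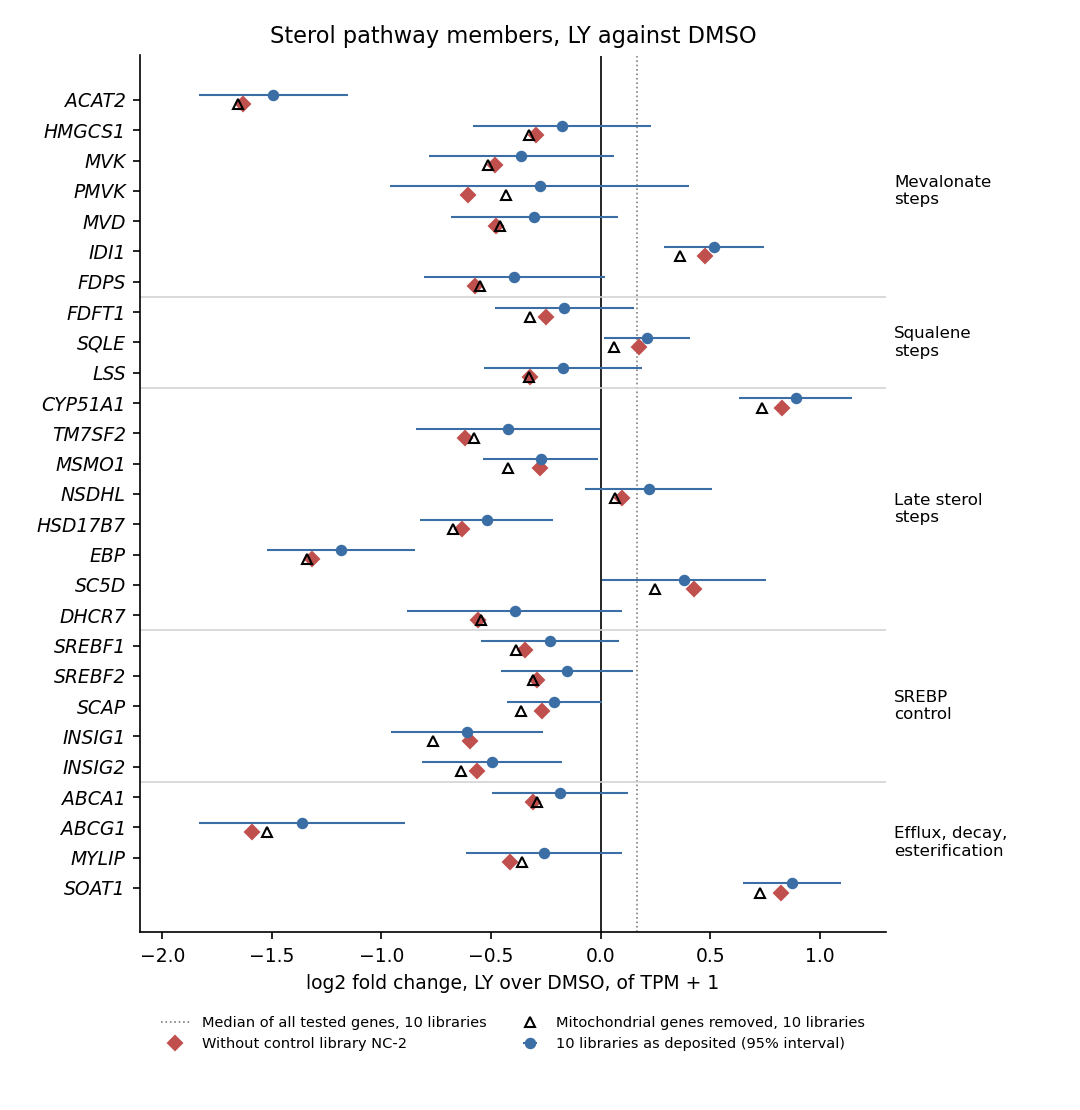
Log2 fold change of LY over DMSO on the log2(TPM + 1) scale for the 27 tested members, ordered along the pathway; blue points with lines are the 10 libraries as deposited with 95% intervals, red diamonds the fit without NC-2, open triangles the fit with mitochondrial genes removed. ACAT2, EBP and ABCG1 lie farthest to the left in all 3 fits, and CYP51A1, SOAT1 and IDI1 lie to the right.

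The mevalonate steps did not move as a block. ACAT2, which joins acetyl-CoA units at the entry of the pathway, fell about 3-fold, IDI1, the isomerase that balances the isoprenoid units, rose, and the 5 enzymes between and after them passed no test as deposited. ACAT2 (ENSG00000120437, chr6:159760328-159779055 in hg38) was at 12.5, 12.95, 15.9, 16.6 and 16.5 TPM in LY-1 to LY-5 and at 44.8, 29.2, 45.4, 49.6 and 52.4 TPM in NC-1 to NC-5. The groups did not overlap, and even NC-2, the lowest control, was above every LY library. The mean fell from 44.3 ± 8.96 to 14.9 ± 1.9997 TPM (SD, n = 5 each), 2.97-fold, with a log2 fold change of -1.49 ± 0.16 (SE, limma adjusted p 5.18e-06) and of -1.63 ± 0.11 without NC-2 (limma adjusted p 1.92e-07). Exons of ACAT2 overlap those of TCP1, a chaperonin subunit on the opposite strand, and whether counting used strand is not given in the sources used here, so reads from the pair may be mixed; TCP1 was at 358 ± 40.4 TPM in LY and 380.4 ± 47.8 TPM in DMSO (SD, n = 5 each).

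IDI1 (ENSG00000067064, chr10:1039152-1049170) was at 43.6, 38.4, 45.2, 45.3 and 39.7 TPM in LY-1 to LY-5 and at 25.7, 26.0, 29.1, 33.1 and 33.6 TPM in the controls. Every LY library was above every control, and NC-2 was not set apart here. The log2 fold change was 0.52 ± 0.10 (SE, limma adjusted p 0.000968), a 1.44-fold rise in mean TPM, and 0.36 with mitochondrial genes removed (limma adjusted p 0.00829).

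The other 5 mevalonate enzymes were lower on average in LY as deposited, and 4 of them fell without NC-2. HMGCS1, which makes the HMG-CoA that feeds mevalonate, spanned 11.97 to 24.3 TPM in LY and 13.8 to 22.6 TPM in DMSO and passed in none of the 3 fits (log2 fold change -0.18, 95% interval -0.58 to 0.23). PMVK, the second kinase of the route, was at 67.5, 69.4, 62.7 and 68.7 TPM in NC-1, NC-3, NC-4 and NC-5 and at 20.9 TPM in NC-2, with 32.2 to 59.0 TPM in LY. Its log2 fold change was -0.28 ± 0.31 as deposited (limma adjusted p 0.452) and -0.61 ± 0.16 without NC-2 (limma adjusted p 0.00653), and it did not pass with mitochondrial genes removed (limma adjusted p 0.132). MVK (the first kinase, -0.36), MVD (the decarboxylase, -0.30) and FDPS (farnesyl diphosphate synthase, -0.39) did not pass as deposited and fell without NC-2, by 0.48, 0.48 and 0.58 on the log2 scale, with limma adjusted p 0.0296, 0.000926 and 0.00102. With NC-2 kept and mitochondrial genes removed, MVK, MVD and FDPS also fell (-0.51, -0.46 and -0.55, limma adjusted p 0.0129, 0.00369 and 0.00151). Exons of MVK overlap those of MMAB on the opposite strand, which was at 7.65 ± 1.49 TPM in LY and 10.4 ± 3.31 TPM in DMSO (SD, n = 5 each). The list of 7 thus had 1 riser and 1 faller as deposited (all tested genes: 39.8% higher and 24.9% lower), and 1 riser and 5 fallers without NC-2 (all tested genes: 39.5% and 31%).

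The 3 squalene enzymes showed small differences. FDFT1, squalene synthase, was at 57.5, 89.7, 64.2, 54.5 and 61.1 TPM in LY and at 70.1, 56.7, 78.8, 78.1 and 80.5 TPM in DMSO. LY-2 was above every control and NC-2 at the level of the lower LY libraries, so the groups overlapped, and the log2 fold change of -0.17 ± 0.15 did not pass as deposited (limma adjusted p 0.337); it fell by 0.32 with mitochondrial genes removed (limma adjusted p 0.0432). SQLE, squalene epoxidase, spanned 26.4 to 31.4 TPM in LY and 21.9 to 27.2 TPM in DMSO, with a log2 fold change of 0.21 ± 0.09 (limma adjusted p 0.0583) as deposited and 0.06 with mitochondrial genes removed. LSS, the cyclase that makes lanosterol, did not pass as deposited (-0.17, limma adjusted p 0.383) and fell by 0.32 on the log2 scale without NC-2 (limma adjusted p 0.0229) and by 0.33 with mitochondrial genes removed (limma adjusted p 0.0193). Of the 3, limma called 0 as deposited (SQLE alone had an unadjusted p below 0.05), and 1 fell without NC-2 and 2 with mitochondrial genes removed. Over all tested genes 39.8% rose and 24.9% fell as deposited, and 31% fell without NC-2 and 32.7% with mitochondrial genes removed.

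In the late steps, enzymes of the same stretch moved in opposite directions. CYP51A1, the cytochrome that demethylates lanosterol, nearly doubled, EBP, the sterol isomerase further down, fell 2.32-fold in mean TPM, and HSD17B7, a ketosteroid reductase between them, fell as well. CYP51A1 (ENSG00000001630, chr7:92112151-92134803) was at 96.5, 78.7, 95.2, 112 and 92.3 TPM in LY-1 to LY-5 and at 52.7, 42.2, 51.1, 47.2 and 60.8 TPM in the controls. The lowest LY library was above the highest control, and the log2 fold change was 0.89 ± 0.12 (SE, limma adjusted p 3.97e-05), 1.87-fold in mean TPM, and 0.74 with mitochondrial genes removed (limma adjusted p 5.42e-05).

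EBP (ENSG00000147155, chrX:48521158-48528716) was at 32.9, 34.7, 35.4, 40.4 and 47.6 TPM in LY and at 93.1, 59.6, 91.0, 98.1 and 102 TPM in the controls. The groups did not overlap, NC-2 again being the control nearest to LY. The log2 fold change was -1.18 ± 0.15 (SE, limma adjusted p 3.27e-05) and -1.32 ± 0.11 without NC-2 (limma adjusted p 9.75e-07). HSD17B7 (ENSG00000132196, chr1:162790702-162812817) was at 19.5, 14.3, 19.2, 20.2 and 18.3 TPM in LY and at 28.8, 19.1, 28.6, 28.5 and 29.3 TPM in the controls. NC-2 lay inside the LY range and the other 4 controls above it, and the log2 fold change was -0.52 ± 0.14 as deposited (limma adjusted p 0.0058) and -0.63 ± 0.10 without NC-2 (limma adjusted p 0.000201).

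The other 5 late enzymes passed no test as deposited. TM7SF2, a sterol reductase, fell by 0.62 on the log2 scale without NC-2 (limma adjusted p 0.000384, against 0.0713 as deposited) and by 0.58 with mitochondrial genes removed (limma adjusted p 0.00263). Its exons overlap those of VPS51 on the same strand, which was at 33.9 ± 3.48 TPM in LY and 47.6 ± 12.6 TPM in DMSO (SD, n = 5 each). DHCR7, the reductase that makes cholesterol in a last step, was at 52.5, 46.8, 50.1, 52.2 and 77.0 TPM in LY and at 90.5, 45.1, 82.6, 106 and 54.9 TPM in the controls. LY-5 stood above the other LY libraries, and 2 controls, NC-2 and NC-5, were within or below the LY range; DHCR7 did not pass as deposited (-0.39, limma adjusted p 0.145) and fell without NC-2 (-0.56, limma adjusted p 0.021) and with mitochondrial genes removed (-0.55, limma adjusted p 0.0211). MSMO1, a sterol methyl oxidase at 7.91 ± 1.336 TPM in LY and 9.70 ± 0.901 TPM in DMSO (SD, n = 5 each), fell with mitochondrial genes removed (-0.42, limma adjusted p 0.0182) and not without NC-2 (limma adjusted p 0.0678). NSDHL, the sterol dehydrogenase of the demethylation complex, and SC5D, the sterol desaturase, were higher on average in LY (log2 fold changes 0.22 and 0.38 as deposited) and passed in none of the 3 fits. SC5D was at 5.42 TPM in LY-1 against 7.46 to 7.88 TPM in the other LY libraries, and at 2.9996 TPM in NC-4 against 5.89 to 6.13 TPM in the other controls, so a single library of each group sets its spread.

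Taken as a sum, the 18 enzymes accounted for 693, 735, 784, 815 and 865 TPM in LY-1 to LY-5 and for 959, 604, 986, 1016 and 1031 TPM in NC-1 to NC-5. Outside NC-2 the controls averaged 998 ± 32.1 TPM (SD, n = 4) and LY 778 ± 67.4 TPM (SD, n = 5), and with mitochondrial genes removed all 5 controls (966 to 1178 TPM) were above all 5 LY libraries (815 to 929.7 TPM). Of these 18, 2 rose and 3 fell as deposited, and 2 rose and 10 fell without NC-2; over all tested genes 39.8% rose and 24.9% fell as deposited, and 39.5% and 31% without NC-2. The order of levels within the pathway shifted: FDPS was the most abundant of the 18 in both groups (193 TPM in the controls without NC-2 and 129 TPM in LY), EBP went from rank 2 to rank 10, CYP51A1 from rank 9 to rank 2 and ACAT2 from rank 10 to rank 16. MSMO1 and SC5D were ranks 17 and 18 in both. Neighbours in the middle of the control order, such as PMVK (67.1 TPM), MVD (65.2 TPM) and NSDHL (60.7 TPM), have no settled order, since their ranges over those 4 controls overlapped (62.7 to 69.4, 60.1 to 69.5 and 59.6 to 61.9 TPM).

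**Figure D3:**
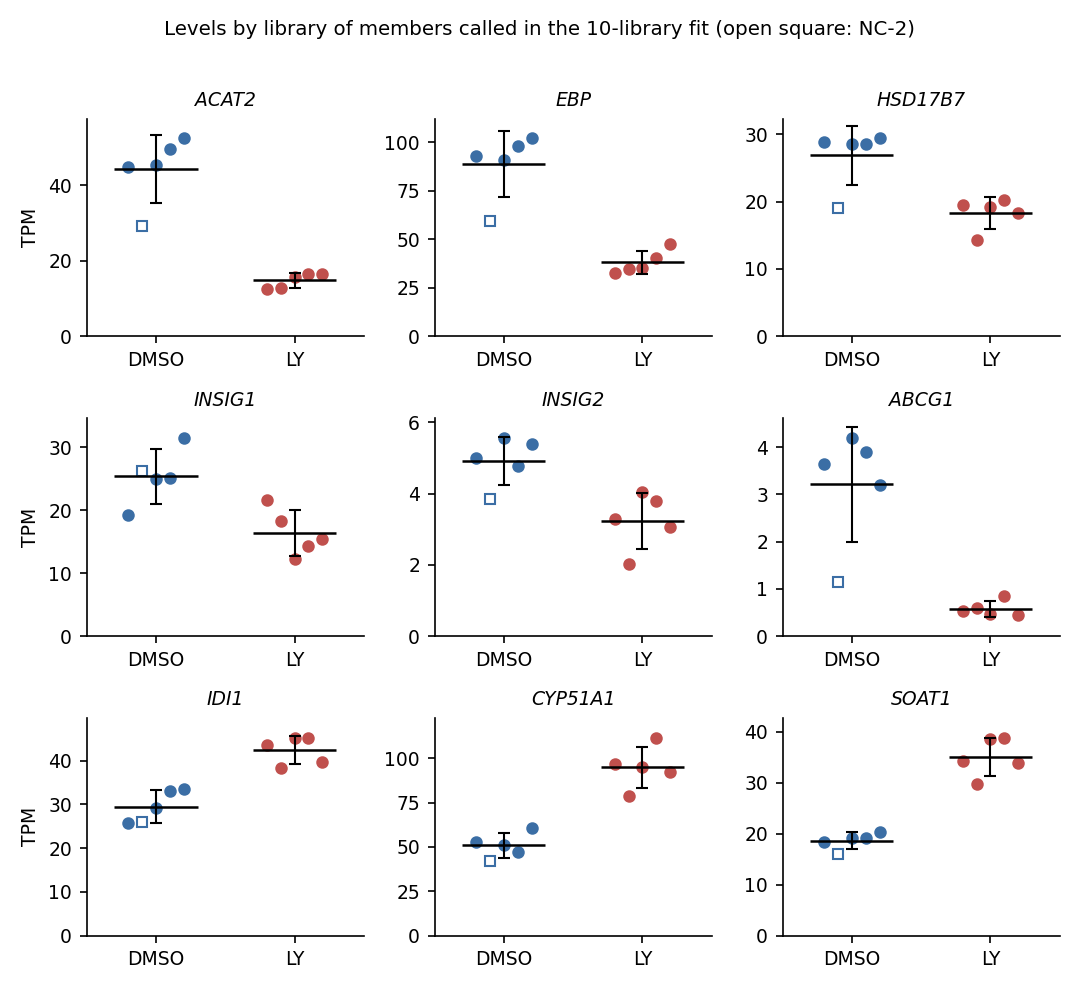
TPM (vertical axes, from 0) in each of the 5 DMSO and 5 LY libraries for the 9 members called in the fit of 10 libraries; horizontal lines are means, error bars the SD (n = 5), the open square NC-2. The groups do not overlap for ACAT2, EBP, ABCG1, IDI1, CYP51A1 and SOAT1, and do overlap for HSD17B7, INSIG1 and INSIG2.

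In the SREBP circuit the INSIG genes, whose products retain SCAP and mark sterol enzymes for destruction, were the members that fell as deposited, and INSIG1 is itself a textbook SREBP target. INSIG1 (ENSG00000186480, chr7:155297776-155310235) was at 21.6, 18.3, 12.3, 14.4 and 15.5 TPM in LY-1 to LY-5 and at 19.2, 26.2, 25.0, 25.1 and 31.5 TPM in NC-1 to NC-5. LY-1 was above NC-1, so the groups overlapped, and NC-2 was among the higher controls. The log2 fold change was -0.61 ± 0.16 as deposited (limma adjusted p 0.0052) and -0.59 ± 0.17 without NC-2 (limma adjusted p 0.00849). INSIG2 (ENSG00000125629, chr2:118088452-118110997), the isoform not driven by SREBP in most cells, was at 3.28, 2.02, 4.03, 3.79 and 3.05 TPM in LY and at 4.99, 3.85, 5.56, 4.76 and 5.40 TPM in the controls. Only NC-2 lay within the LY range, and the log2 fold change was -0.50 ± 0.15 (limma adjusted p 0.0107).

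SREBF1, SREBF2 and SCAP did not pass as deposited, and each fell without NC-2 and with mitochondrial genes removed. Of the 5 genes of the circuit, 0 rose and 2 fell as deposited, 5 fell without NC-2 and 5 fell with mitochondrial genes removed. Over all tested genes 39.8% rose and 24.9% fell as deposited, and 31% fell without NC-2 and 32.7% with mitochondrial genes removed. SREBF1 (ENSG00000072310, chr17:17810399-17837002) was at 134, 130.3, 105, 133 and 157 TPM in LY and at 163, 111, 180.2, 171 and 154 TPM in the controls. LY-5 exceeded NC-5 and NC-2 lay below 4 of the LY libraries, and the log2 fold change was -0.23 ± 0.14 (limma adjusted p 0.178) as deposited and -0.35 ± 0.11 (limma adjusted p 0.0131) without NC-2, and -0.39 with mitochondrial genes removed (limma adjusted p 0.00772). Exons of SREBF1 overlap those of RAI1 on the opposite strand, which was at 14.3 ± 3.17 TPM in LY and 21.9 ± 6.98 TPM in DMSO (SD, n = 5 each). SREBF2 (ENSG00000198911, chr22:41833079-41907308), whose promoter is printed above, was at 45.9, 51.4, 43.9, 46.7 and 47.8 TPM in LY and at 53.8, 35.6, 62.1, 58.2 and 57.3 TPM in the controls. NC-2 was below every LY library and the other 4 controls above every LY library, and the log2 fold change was -0.15 ± 0.14 (limma adjusted p 0.35) as deposited, -0.29 ± 0.08 (limma adjusted p 0.00513) without NC-2 and -0.31 (limma adjusted p 0.0091) with NC-2 kept and mitochondrial genes removed. SCAP fell by 0.27 on the log2 scale without NC-2 (limma adjusted p 0.0165, against 0.0816 as deposited) and by 0.37 with mitochondrial genes removed (limma adjusted p 0.00455). These fits measure mRNA, and neither cleavage nor nuclear SREBP protein was measured.

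One exporter and the storage enzyme moved in opposite directions. ABCG1, an exporter that passes cholesterol to lipoprotein particles, fell more than 5-fold in mean TPM, and SOAT1, which esterifies cholesterol for storage, rose 1.88-fold. ABCG1 (ENSG00000160179, chr21:42199689-42297244) was at 0.522, 0.585, 0.478, 0.848 and 0.436 TPM in LY-1 to LY-5 and at 3.65, 1.14, 4.19, 3.89 and 3.20 TPM in NC-1 to NC-5. All LY libraries were below 1 TPM and all controls above it, so the gene passed the filter only through the controls. The mean fell from 3.21 ± 1.22 to 0.574 ± 0.163 TPM (SD, n = 5 each), 5.60-fold, and 6.51-fold against the controls without NC-2. Its log2 fold change on the log2(TPM + 1) scale was -1.36 ± 0.21 (limma adjusted p 0.000147). SOAT1 (ENSG00000057252, chr1:179293714-179358680) was at 34.3, 29.7, 38.5, 38.8 and 33.8 TPM in LY and at 18.4, 16.02, 19.1, 19.2 and 20.3 TPM in the controls. The groups did not overlap, and the log2 fold change was 0.87 ± 0.10 (SE, limma adjusted p 1.38e-05), 0.73 with mitochondrial genes removed (limma adjusted p 2.35e-05).

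The remaining 4 genes of this group were low. ABCA1, the exporter that loads cholesterol onto apolipoprotein, was at 1.55, 1.37, 1.92, 1.56 and 1.70 TPM in LY and at 2.56, 1.102, 2.398, 2.13 and 1.92 TPM in DMSO. The ranges overlapped, and it fell without NC-2 (-0.31, limma adjusted p 0.017, against 0.271 as deposited) and with mitochondrial genes removed (-0.29, limma adjusted p 0.0426), but stood at 0.036 under quantile normalization. MYLIP, an LXR-driven ubiquitin ligase that degrades lipoprotein receptors, likewise fell without NC-2 (-0.41, limma adjusted p 0.00474) and with mitochondrial genes removed (-0.36, limma adjusted p 0.0401). It did not pass as deposited (limma adjusted p 0.183) or under quantile normalization (-0.030, limma adjusted p 0.847). STARD4, a soluble sterol carrier, was listed at 0 in 4 LY libraries and at 0.0496 TPM in LY-3, and at 0.0394 to 0.203 TPM in the controls, too low to be tested. NPC1L1, the intestinal sterol importer, was listed at 0 in every library except LY-3 (0.0115 TPM), and was not tested.

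The ratio of 2 related genes within a library does not depend on the scaling between libraries, apart from the 1 TPM added to each. For 5 such ratios, log2((a + 1)/(b + 1)) was compared with a two-sided exact permutation test over every assignment of the 10 libraries, whose smallest possible p is 0.0079, and p-values were adjusted over the 5. ACAT2 over ACAT1, the mitochondrial thiolase, ran from 0.0523 to 0.0646 in LY and from 0.172 to 0.224 in DMSO, with no overlap (log2 difference -1.74, exact adjusted p 0.0132). ABCA1 over ABCG1 ran from 1.84 to 4.01 in LY and from 0.546 to 0.967 in DMSO (log2 difference 1.18, exact adjusted p 0.0132; 1.95 with a pseudocount of 0.1). ABCG1 was below 1 TPM in every LY library, so this ratio rests there on low values. TM7SF2 over LBR, which carries a sterol reductase domain of the same activity, ran from 1.43 to 2.15 in LY and from 0.415 to 1.12 in DMSO (log2 difference 1.07, exact adjusted p 0.0132). In all 3, each LY library lay outside the control range, NC-2 included. ACAT2, ABCG1 and LBR each fell in these same libraries, so the ratios set those falls against a partner gene and add no separate support.

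The circuit's own ratios did not differ beyond their spread. SREBF1 over SREBF2 averaged 2.80 ± 0.349 in LY and 2.93 ± 0.160 in DMSO (SD, n = 5 each; log2 difference -0.08, exact adjusted p 0.466), and INSIG1 over INSIG2 averaged 5.51 ± 2.401 and 5.25 ± 1.15 (SD, n = 5 each; log2 difference -0.11, exact adjusted p 0.675). INSIG1 over INSIG2 was spread from 3.05 in LY-3 to 9.07 in LY-2. A p that misses the threshold does not show that these ratios are equal.

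**Figure D4:**
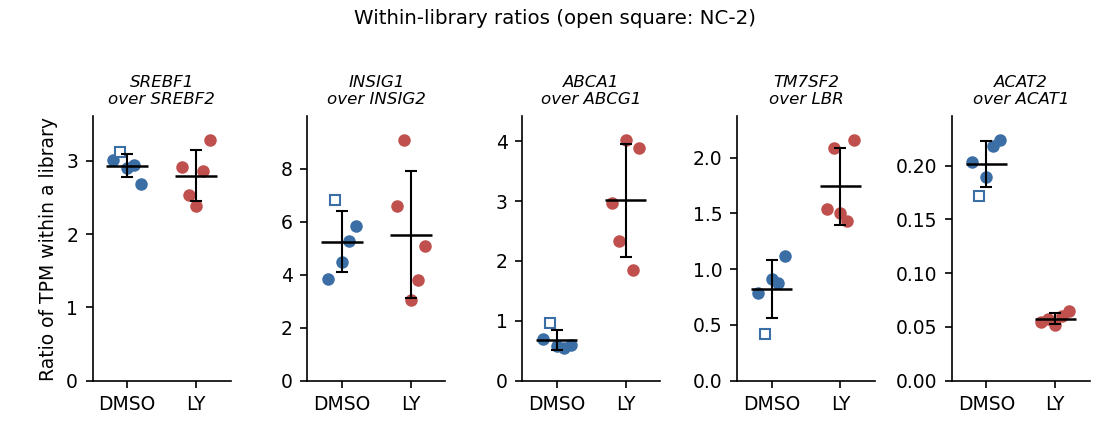
Ratio of TPM within a library (vertical axes, from 0) for 5 gene pairs in the 5 DMSO and 5 LY libraries; lines are means, error bars the SD (n = 5), the open square NC-2. ABCA1 over ABCG1, TM7SF2 over LBR and ACAT2 over ACAT1 separate the groups, and the SREBF and INSIG ratios overlap.

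A further 81 genes of sterol metabolism in 6 lists were looked at for context; 66 were tested, of which 20 rose and 26 fell as deposited (30.3% and 39.4%, against the 39.8% and 24.9% of all genes above). Among branch enzymes of the sterol and isoprenoid routes, 7 of 16 tested rose and 8 fell (all tested genes: 39.8% and 24.9%). GGPS1, which makes the geranylgeranyl donor for protein prenylation, rose from 13.02 ± 1.16 to 27.4 ± 6.35 TPM (SD, n = 5 each; log2 fold change 0.996). FNTA, a subunit of the protein prenyltransferases, rose from 52.4 ± 9.49 to 104 ± 8.15 TPM (SD, n = 5 each). LBR fell from 33.7 ± 4.79 to 11.2 ± 0.977 TPM (log2 fold change -1.49 ± 0.12). FAXDC2, a hydroxylase family member, went from 4.11 ± 1.01 to 0.655 ± 0.169 TPM. It was below 1 TPM in every LY library, so it passed the filter, and entered the 8 that fell, only through the controls. ACAT1, the ratio partner of ACAT2, did not pass (0.24, limma adjusted p 0.10).

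Of 15 genes that process or degrade SREBP and its partners, 6 rose (4 with mitochondrial genes removed) and 2 fell, where 39.8% of all tested genes rose (33.2% with mitochondrial genes removed) and 24.9% fell. SEC24A (1.21), a COPII coat subunit of the carrier vesicles, and ERLIN1 (1.11), part of the degradation complex at the endoplasmic reticulum, had the largest rises. MBTPS1, the first protease that cuts SREBP, fell from 72.4 ± 7.78 to 39.1 ± 2.95 TPM (SD, n = 5 each, log2 fold change -0.87). MBTPS2, the second protease that cuts it, rose from 24.6 ± 2.15 to 48.3 ± 5.04 TPM (SD, n = 5 each, log2 fold change 0.94, limma adjusted p 6.78e-06). SEC23A, another coat subunit, fell by 0.53 on the log2 scale. Among 15 tested transport and uptake genes 5 rose (3 with mitochondrial genes removed) and 6 fell, with CAV1 (caveolin, 1.22) and OSBPL2 (an oxysterol-binding protein relative, 0.84) rising most and STARD10 (a lipid transfer protein, -1.50) and LRP8 (a lipoprotein receptor, -0.71) falling most.

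As deposited, the LXR list and the fatty acid targets of SREBP held no riser, where 39.8% of all tested genes rose. The LXR list held 1 riser with no filter on low values, and the fatty acid list held 1 without NC-3. Of 6 tested LXR partners and targets, 5 fell and 1 did not pass, where 24.9% of all tested genes fell, with a list median of -0.60. RXRA, the heterodimer partner, went from 43.6 ± 10.2 to 15.03 ± 2.22 TPM (SD, n = 5 each, log2 fold change -1.45). NR1H3, which encodes LXR alpha, went from 10.5 ± 1.61 to 5.15 ± 1.11 TPM (-0.91). The gene that did not pass was NR1H2, which encodes LXR beta. It was higher on average in LY, at 52.0 ± 9.21 TPM against 37.4 ± 11.7 TPM in DMSO (0.53, limma adjusted p 0.0754). Of 11 tested fatty acid genes, 5 fell as deposited and 8 fell without NC-2 (24.9% and 31% of all tested genes), with a median of -0.26 as deposited. SCD, the stearoyl desaturase, went from 381 ± 63.5 to 129 ± 3.05 TPM (SD, n = 5 each; -1.53), and FADS2, a fatty acid desaturase, from 48.0 ± 6.78 to 13.6 ± 1.16 TPM (-1.74). Only 3 of 9 ester and oxysterol enzymes could be tested: NCEH1, which hydrolyses cholesteryl ester, rose from 23.3 ± 2.56 to 74.3 ± 4.402 TPM (SD, n = 5 each; 1.64), beside the rise of SOAT1, and LCAT, which makes the ester in plasma, rose by 0.51. The 2 medians given here stand beside 0.17 for all tested genes, with no list test.

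**Figure D5:**
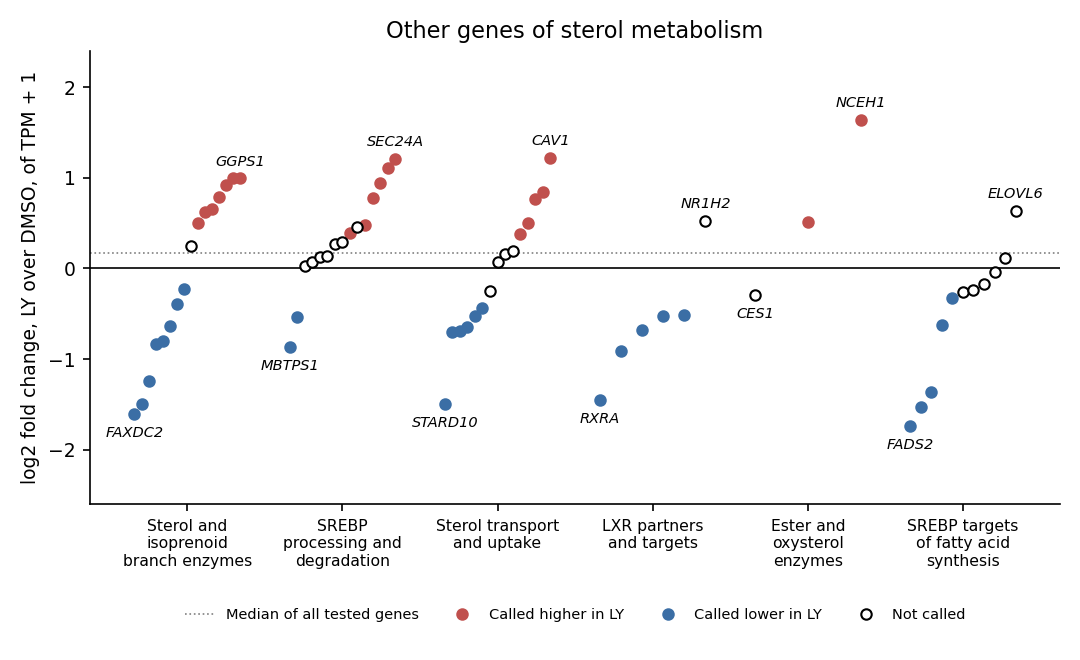
Log2 fold change of LY over DMSO on the log2(TPM + 1) scale for the 66 tested genes in 6 lists outside the 29 members, 10 libraries as deposited; filled red points were called higher, filled blue lower, open points not called, and the dotted line is the median of all tested genes (0.17). The LXR and fatty acid lists hold blue and open points, and NCEH1 lies highest of all.

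Markers of other cell types were measured in the same libraries. The summed level of 4 leukocyte markers was 131 to 232 TPM in LY and 35.0 to 47.7 TPM in DMSO, almost entirely from CD68 (179 ± 43.5 and 39.8 ± 5.01 TPM, SD, n = 5 each), a lysosomal protein that other cells also make, with CD3E at 0. The sum of 5 fibroblast markers was 27.7 to 37.7 TPM in LY and 68.9 to 115 TPM in DMSO, mostly COL1A2, with DCN at 0, and that of 3 endothelial markers 2.74 to 3.32 TPM in LY and 0.0988 to 0.535 TPM in DMSO, with PECAM1 at 0. The part of these markers in the results above was not tested.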

How the data were processed

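PANC-1 libraries, 5 treated with LY and 5 with DMSO, were analysed from the gene table of TPM values the authors deposited. Per the labels' protocols, RNA was taken with an RNeasy kit, whereas the series text names Trizol, and the library kit was Hieff NGS MaxUp (Dual-mode mRNA). The submitters' processing notes list the builds hg38, GRCm38 and mm10 without a role; the aligner, counter and strand setting are not stated. Coordinates are of GENCODE release 29 (hg38). The TPM columns sum to 999932 to 999967, read depth is unknown, and the number of libraries limits the precision. Genes at TPM of at least 1 in at least 5 libraries were tested on log2(TPM + 1) with limma 3.58.1 in R 4.3.3, with a mean-variance trend, group as the only term and Benjamini-Hochberg adjustment over 11663 genes. Ratios were tested by exact permutation in Python 3.11.15. No library repeated another's values. The scripts were tested on simulated data. Alternatives covered the pseudocount, the filter, the scaling, mitochondrial genes, the test and each library left out. All 29 members are named. Of each other list, the 2 called genes with the largest rise and the 2 with the largest fall are named, and the ratio partners. NR1H2 and MBTPS2 were named outside this rule, as counterparts of NR1H3 and MBTPS1. ABCG1 and FAXDC2 passed the filter through the controls. The members and lists were chosen with earlier results of these data known. Of the sterol and isoprenoid branch enzymes, 2 genes are not reported here and are left out of the counts and of this naming rule.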

Additional observations from a re-analysis of the deposited data

Results flagged for a closer look

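In groups of 5 libraries, the gap of the highest or lowest library to its nearest neighbour was compared with the whole range (Dixon's ratio, critical value 0.71). Of 72 groups looked at, 15 exceeded it, and 9 of the 15 were NC-2. Chance flags about 1 in 20 of independent groups. These groups share the same libraries, so the 15 cannot be judged against that rate. NC-2 was low for PMVK (20.9 TPM, other controls 62.7 to 69.4), MVD (34.8 TPM, others 60.1 to 69.5), LSS (46.8 TPM, others 76.7 to 84.7), TM7SF2 (14.9 TPM, others 28.5 to 33.5), NSDHL (39.4 TPM, others 59.6 to 61.9), HSD17B7 (19.1 TPM, others 28.5 to 29.3) and EBP (59.6 TPM, others 91.0 to 102). It was also low in the summed TPM of the 18 synthesis enzymes (604, others 959 to 1031) and high in mitochondrial share (37.5%, others 12.2% to 14.1%).

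The other 6 were in different libraries. FDFT1 stood at 89.7 TPM in LY-2 (other LY libraries 54.5 to 64.2) and DHCR7 at 77.0 TPM in LY-5 (others 46.8 to 52.5). SC5D was low in LY-1 (5.42 TPM, others 7.46 to 7.88) and in NC-4 (2.9996 TPM, others 5.89 to 6.13). STARD4 (0.0496 TPM) and NPC1L1 (0.0115 TPM) were above 0 in LY-3 and listed at 0 in the other LY libraries, which fixes their ratio at 1.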

How the results depend on the processing

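The count of members that fell depended on the library NC-2 and on the scaling, and the count that rose did not move beyond 1.5 times. Against 6 fallers as deposited, 17 fell under median-ratio scaling, 16 under quantile normalization, 20 under upper-quartile scaling and 19 with mitochondrial genes removed. Over all tested genes the number called lower was also larger: 3756, 3694, 4371 and 3812 in the same order, against 2899 as deposited. The member counts have to be read beside these, and the difference was not tested. Leaving out each library in turn gave 6 to 18 members that fell, with 18 without NC-2. Leaving out NC-2 gave 19 together with median-ratio scaling and 19 together with removal of the mitochondrial genes, the last chosen after seeing the data. NC-2 holds 37.5% mitochondrial TPM, which scales down its other genes; the cause of its share was not tested. Without NC-2, the number of all tested genes called lower was 3610. It was 4004 with median-ratio scaling added and 3939 with the mitochondrial genes removed as well. Among single genes, log2 fold changes that did not pass changed sign for SQLE (-0.050, upper-quartile), NSDHL (-0.053 quantile, -0.047 upper-quartile) and ABCA1 (0.036, quantile), as did the log2 fold change of ACAT1 (-0.0031 quantile, -0.027 upper-quartile). The ratio of INSIG1 over INSIG2 changed sign without LY-3 (0.044, exact adjusted p 0.849; range over left-out libraries -0.27 to 0.044), and the other 4 ratios kept direction and side of the threshold. HSD17B7 no longer passed under the exact Wilcoxon test, nor LCAT under upper-quartile scaling. A filter of TPM of at least 5 left INSIG2, ABCA1, ABCG1 and MYLIP untested. No paired analysis was possible because the control columns carry no sample number of the labels. Depth is unknown, so genes near 1 TPM have no counting error here.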
